A study of Mus musculus with 9 samples.

Results

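The 10 genes described here encode 9 chemokines (Ccl2, Ccl3, Ccl4, Ccl6, Ccl9, Cxcl1, Cxcl9, Cxcl10 and Cxcl16) and the leukocyte adhesion molecule Vcam1, and they were measured by RNA sequencing in mouse liver. They were picked by symbol, and each matched 1 row of a deposited count table of 54532 genes. The choice was made with values of these same livers already known, so their levels in old against young livers are given as a description. The study used male C57BL/6 mice and sequenced 3 livers per group. The old Fabp4 shRNA group carried adeno-associated virus 9 (AAV9, a gene delivery vector) with a short hairpin RNA against Fabp4, a fatty acid carrier of fat cells and macrophages. The old control group carried the same vector with a negative control hairpin. Both viruses were given at 14 months through the tail vein and into subcutaneous fat (sWAT), and these mice were killed at 20 months. The young group was 8 weeks old and, as far as the labels say, received no virus, so age and virus cannot be told apart between old control and young livers.

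Chemokines are small secreted proteins that draw white blood cells along a gradient by binding receptors on their surface. Adhesion molecules such as Vcam1 on blood vessel walls let the arriving cells attach before they leave the blood. In the liver, resident macrophages (Kupffer cells), the endothelium of the sinusoids, stellate cells and hepatocytes can all make chemokines, many of them under control of the transcription factor NF-kB or of interferons. In whole liver, more cells of one type and more RNA per cell cannot be told apart.

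Total counts ran from 14243344 to 17125440 per library, and 14025 genes passed the filter on low counts. Levels are given as CPM, which are counts scaled to the size of each library (TMM scaling). Fabp4 itself had 11.2, 3.81 and 7.58 CPM in old Fabp4 shRNA livers, 7.21, 13.6 and 10.9 CPM in old control livers, and 3.40, 2.67 and 64.8 CPM in young livers. Its log2 fold change in old Fabp4 shRNA against old control livers was -0.49 ± 1.16 (SE, adjusted p = 0.960, edgeR quasi-likelihood test), so a lower Fabp4 was not detected in the livers labelled Fabp4 shRNA. The 64.8 CPM belonged to a young library whose column name matches no numbered sample, called the unnumbered young library. In that library 6 skeletal muscle markers summed to 3087 CPM. They summed to 73.4 CPM in the old Fabp4 shRNA liver numbered 3 and to at most 2.51 CPM in each remaining library. The values of the unnumbered young library in the 2 deposited tables also differ. Values of old control against young livers are therefore also given without it. The 5 hepatocyte markers summed to 67018 to 82403 CPM in old Fabp4 shRNA livers, 82141 to 126936 CPM in old control livers and 100540 to 161003 CPM in young livers, so the old Fabp4 shRNA livers lay below the young livers and overlapped the old control livers. Mitochondrial transcripts took 8.47%, 4.15% and 4.22% of counts in old Fabp4 shRNA livers, 4.42%, 11.1% and 14.5% in old control livers, and 13.8%, 11.4% and 6.89% in young livers. Their part in the results below was not tested.

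Each list of values below follows the animal numbers, which are 1, 3 and 6 for old Fabp4 shRNA livers, 1, 2 and 5 for old control livers, and 1, 5 and the unnumbered library for young livers. All 10 genes were detected in at least 6 of the 9 libraries, but 3 of them were near the limit of detection. Ccl4 was removed by the filter, and Ccl3 passed it only through the old control livers. Ccl2 passed through all old control and 2 old Fabp4 shRNA livers, while the other 7 genes exceeded the filter's cutoff in every library.

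**Figure D1:**
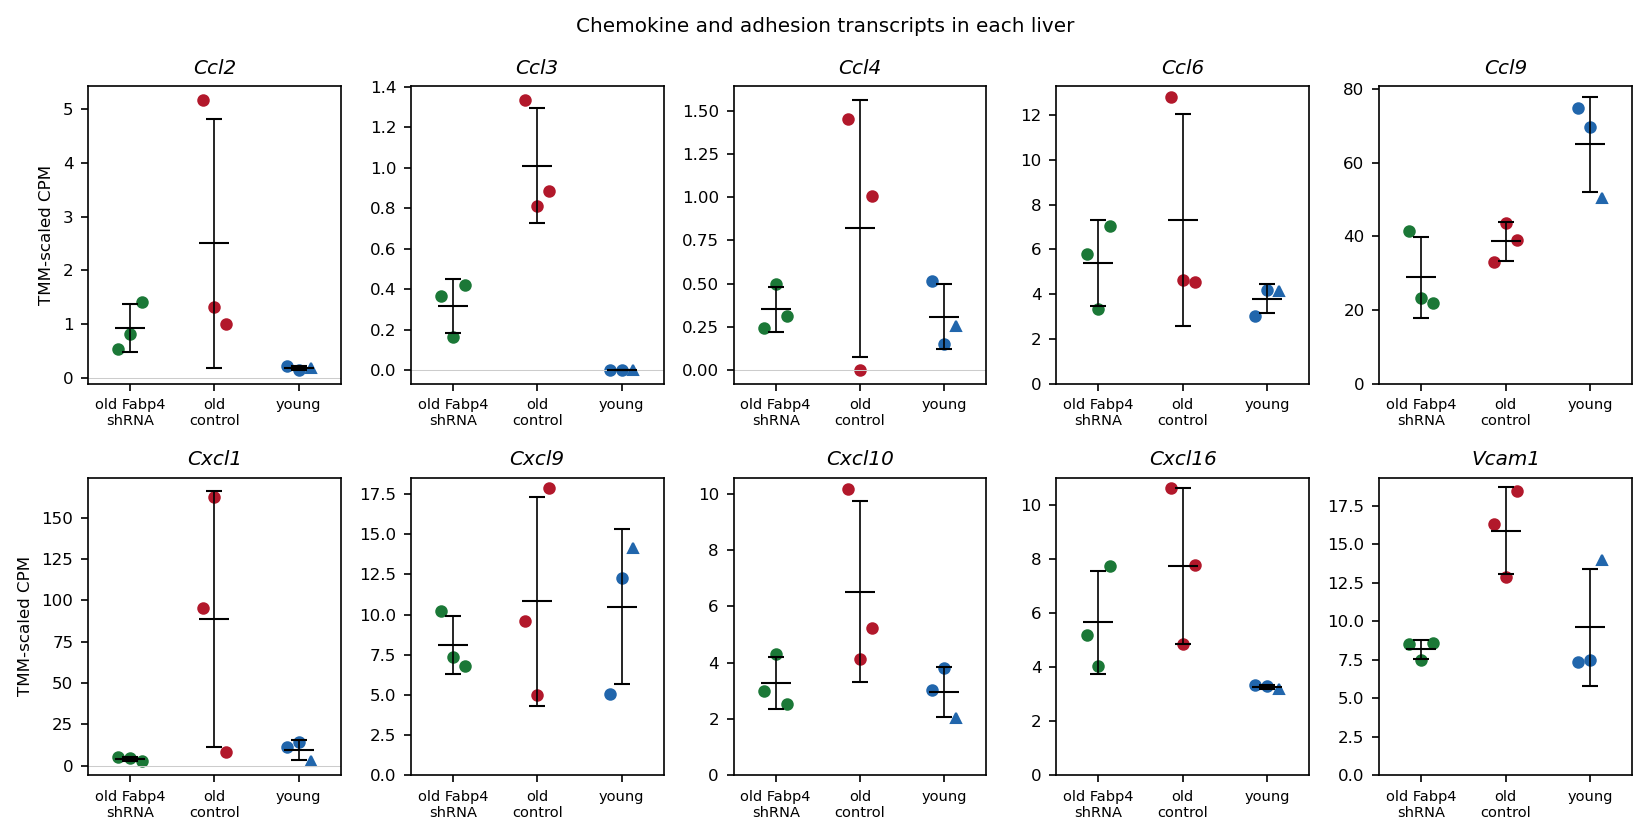
Level of each of the 10 genes in every library, in CPM on the vertical axes, with old Fabp4 shRNA, old control and young livers from left to right, points for libraries, a triangle for the unnumbered young library, and black marks with bars for the group mean and SD (n = 3). Cxcl1 stood at 95.6 and 162 CPM in 2 old control livers and at 14.3 CPM or less in every other library.

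Among the CC chemokines, Ccl2, the main attractant of monocytes through Ccr2, had 0.550, 0.827 and 1.41 CPM in old Fabp4 shRNA livers, 5.17, 1.32 and 1.01 CPM in old control livers, and 0.222, 0.153 and 0.192 CPM in young livers. The young values rest on 3, 2 and 3 counts. Old control liver 1 held 89 of the 123 counts of its group, and the old groups overlapped, while both stood above the young livers. In old Fabp4 shRNA against old control livers the log2 fold change was -1.42 ± 0.64 (SE, edgeR adjusted p = 0.728), and it was -0.32 when old control liver 1 was left out. Against young livers, Ccl2 was 2.26 ± 0.79 higher on the log2 scale in old Fabp4 shRNA livers and 3.68 ± 0.77 higher in old control livers (2.57 without liver 1).

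Ccl3 and Ccl4 are neighbouring genes whose products attract macrophages and T cells. Ccl3 had 6, 3 and 8 counts in old Fabp4 shRNA livers, 23, 11 and 14 counts in old control livers, and 0 in all 3 young livers. In CPM this was 0.366, 0.165 and 0.418 in old Fabp4 shRNA livers against 1.34, 0.809 and 0.884 in old control livers. All old control livers stood above the other 6 libraries, which held for no other of the 10 genes. Ccl3 passed the filter only through these livers, so nothing is read from this beside the 1.65% of all tested genes. The log2 fold change was -1.65 ± 0.65 in old Fabp4 shRNA against old control livers (SE, edgeR adjusted p = 0.728). Set against an assumed floor of 3 counts over the whole young group, Ccl3 was 4.47-fold higher in old Fabp4 shRNA livers. On the same floor it was 14.5-fold higher in old control livers. These ratios rest on that floor and are not lower bounds, and a floor of 3 counts in each young library would make them smaller. The exact 95% intervals of the count ratios, which cover counting error only, had lower limits of 3.25 and 11.4. A count of 0 allows up to 0.229 CPM in the shallowest young library, and reads recovered from the second deposited value of the unnumbered young library gave 1 read there.

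Ccl4 was too low to test. It had 4, 9 and 6 counts in old Fabp4 shRNA livers, 25, 0 and 16 counts in old control livers, and 7, 2 and 4 counts in young livers. The ratio of summed counts was 0.403 in old Fabp4 shRNA against old control livers and 2.86 in old control against young livers. The exact 95% intervals of these ratios, 0.221 to 0.710 and 1.50 to 5.82, cover counting error only. They leave out the spread between livers, which ran from 0 to 25 counts within the old control group.

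Ccl6 and Ccl9 are CC chemokines of mice made largely by myeloid cells, and both signal through Ccr1. Ccl6 had 5.80, 3.31 and 7.05 CPM in old Fabp4 shRNA livers, 12.8, 4.64 and 4.55 CPM in old control livers, and 3.03, 4.20 and 4.15 CPM in young livers. At the top stood old control liver 1 alone, and the old groups overlapped. The log2 fold change of Ccl6 in old Fabp4 shRNA against old control livers was -0.45 ± 0.43 (SE, edgeR adjusted p = 0.895), and it turned to 0.23 without old control liver 1. Against young livers the old control value was 0.95 ± 0.44, and 0.27 without that liver.

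Ccl9 ran the other way between old and young livers. It had 41.5, 23.3 and 21.8 CPM in old Fabp4 shRNA livers, 33.2, 43.8 and 38.9 CPM in old control livers, and 75.0, 69.7 and 50.4 CPM in young livers. Both old groups lay below all young livers and overlapped each other. Between the old groups, old Fabp4 shRNA against old control, the log2 fold change was -0.42 ± 0.27 (SE, edgeR adjusted p = 0.805), with -0.77 without old Fabp4 shRNA liver 1 and -0.25 without old Fabp4 shRNA liver 6. Against young livers it was -1.17 ± 0.27 in old Fabp4 shRNA livers and -0.75 ± 0.27 in old control livers. Without the unnumbered young library it became -1.33 in old Fabp4 shRNA livers and -0.93 in old control livers, so the sign did not rest on that library. Ccl9 and Ccl6 lie side by side on the same strand, at chr11:83572919-83578636 and chr11:83587882-83593087 of GRCm38, and Ccl3 and Ccl4 follow within 91765 bp of the start of Ccl9. These 4 neighbours did not share 1 pattern: Ccl9 was the only one with its highest mean in young livers.

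Cxcl1, which attracts neutrophils through Cxcr2, had the widest range in CPM of the 10 genes. It had 87, 81 and 52 counts in old Fabp4 shRNA livers, 1644, 2208 and 128 counts in old control livers, and 152, 187 and 40 counts in young livers. In CPM it stood at 5.31, 4.47 and 2.72 in old Fabp4 shRNA livers, 95.6, 162 and 8.08 in old control livers, and 11.2, 14.3 and 2.55 in young livers. Old control livers 1 and 2 were far above all others, while old control liver 5 lay inside the range of the young livers. The highest old control value was 20.1 times the lowest, against 1.96 times among old Fabp4 shRNA livers and 5.59 times among young livers. The old Fabp4 shRNA livers all lay below the old control livers. Their log2 fold change was -4.41 ± 1.11 (SE, 95% interval -7.01 to -1.81), with an edgeR adjusted p of 0.728 and a DESeq2 adjusted p of 0.0300. Leaving out 1 library at a time kept this value between -4.95 and -3.63. Against young livers it was -1.16 ± 1.03 in old Fabp4 shRNA livers and 3.25 ± 1.05 in old control livers, and the groups overlapped in both.

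Cxcl9 and Cxcl10 are induced by interferons and attract T cells and natural killer cells through Cxcr3. Cxcl9 had 10.2, 7.34 and 6.79 CPM in old Fabp4 shRNA livers, 9.59, 5.00 and 17.9 CPM in old control livers, and 5.03, 12.3 and 14.2 CPM in young livers. All 3 groups overlapped. The log2 fold change in old Fabp4 shRNA against old control livers was -0.42 ± 0.46 (SE, edgeR adjusted p = 0.903), and 0.15 without old control liver 5, the highest library. In old control against young livers it was 0.04 ± 0.46, with 0.30 without the unnumbered young library, 0.38 without old control liver 2 and -0.52 without old control liver 5. Settings that kept all libraries of both groups gave up to 0.73. Reads recovered from the second deposited value of the unnumbered young library gave 49 for Cxcl9, against 222 counts.

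Cxcl10 had 2.99, 4.30 and 2.51 CPM in old Fabp4 shRNA livers, 10.2, 4.12 and 5.24 CPM in old control livers, and 3.03, 3.82 and 2.04 CPM in young livers. Old control liver 1 was highest, and all old control livers lay above all young livers. Old control liver 2 lay just under the highest old Fabp4 shRNA liver. The log2 fold change was -0.996 ± 0.41 in old Fabp4 shRNA against old control livers (SE, edgeR adjusted p = 0.728), or -0.52 without old control liver 1. Against young livers it was 0.14 ± 0.41 in old Fabp4 shRNA livers, or -0.06 without the unnumbered young library, and 1.14 ± 0.41 in old control livers. Cxcl9 and Cxcl10 lie within 27543 bp of each other on chromosome 5, yet the highest library was old control liver 5 for Cxcl9 and old control liver 1 for Cxcl10.

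The promoters of these 3 CXC genes are shown because their highest libraries differed. Each is given 5′ to 3′ on the strand of its gene, from 250 bases before to 50 bases after the RefSeq start site on GRCm38.p6. Capitals mark matches to the NF-kB consensus or to the core of the interferon-stimulated response element (ISRE, GAAANNGAAA), searched on both strands. The windows are chr5:90890995-90891294 (plus strand) for Cxcl1, chr5:92348840-92349139 (minus strand) for Cxcl10 and chr5:92328030-92328329 (minus strand) for Cxcl9.
Cxcl1: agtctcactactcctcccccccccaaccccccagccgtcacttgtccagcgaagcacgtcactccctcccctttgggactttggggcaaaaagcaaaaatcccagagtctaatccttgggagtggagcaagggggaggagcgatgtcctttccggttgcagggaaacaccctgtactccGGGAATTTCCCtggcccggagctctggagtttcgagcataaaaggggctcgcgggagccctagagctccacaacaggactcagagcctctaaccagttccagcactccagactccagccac
Cxcl10: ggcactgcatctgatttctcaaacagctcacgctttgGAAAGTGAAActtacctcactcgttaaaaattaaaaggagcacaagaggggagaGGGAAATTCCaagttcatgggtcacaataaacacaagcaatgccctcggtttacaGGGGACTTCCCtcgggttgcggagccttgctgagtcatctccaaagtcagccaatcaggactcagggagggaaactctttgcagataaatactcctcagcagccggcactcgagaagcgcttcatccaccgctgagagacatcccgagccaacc
Cxcl9: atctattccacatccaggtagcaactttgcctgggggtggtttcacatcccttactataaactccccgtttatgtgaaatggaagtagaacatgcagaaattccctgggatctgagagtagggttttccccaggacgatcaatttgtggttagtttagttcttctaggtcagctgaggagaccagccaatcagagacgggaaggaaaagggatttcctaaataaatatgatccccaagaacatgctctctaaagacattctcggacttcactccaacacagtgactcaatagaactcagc

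The Cxcl1 window held 2 overlapping NF-kB matches, starting at -71 and -70 from the start site. The Cxcl10 window held an ISRE core starting at -213 and NF-kB matches starting at -159, -104 and -103, the last 2 overlapping. The Cxcl9 window held no match to either. Of 32851 mouse promoters of the same length, 8.459% held the NF-kB consensus and 3.443% the ISRE core. The interferon gamma-activated sequence (GAS, TTCNNNGAA) was in none of the windows of the 6 genes with a promoter entry, and in 8.298% of all promoters. Of the CC genes with an entry, Ccl9 held 1 NF-kB match at -35, and Ccl3 and Ccl6 held none. A match is a stretch of letters and was not tested for binding.

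Cxcl16 encodes a chemokine that is made as a membrane protein and binds Cxcr6, a receptor on T cells and natural killer T cells that patrol the sinusoids. It had 5.19, 4.03 and 7.73 CPM in old Fabp4 shRNA livers, 10.6, 4.86 and 7.76 CPM in old control livers, and 3.33, 3.28 and 3.19 CPM in young livers. Every old liver of either group was above every young liver, and the young livers differed by no more than 1.04 times. Its log2 fold change in old Fabp4 shRNA against old control livers was -0.46 ± 0.35 (SE, edgeR adjusted p = 0.843), with -0.16 without old control liver 1 and -0.75 without old Fabp4 shRNA liver 6. Against young livers it was 0.79 ± 0.36 in old Fabp4 shRNA livers and 1.25 ± 0.36 in old control livers.

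Vcam1, which holds white blood cells to endothelium by binding the integrin that contains Itga4, separated the old groups with little spread. It had 8.49, 7.45 and 8.57 CPM in old Fabp4 shRNA livers, 16.3, 12.9 and 18.4 CPM in old control livers, and 7.32, 7.48 and 14.0 CPM in young livers. Every old Fabp4 shRNA liver was below every old control liver. The log2 fold change was -0.96 ± 0.28 (SE, 95% interval -1.57 to -0.35, edgeR adjusted p = 0.728), and it ran from -1.08 to -0.84 over the fits that left out 1 library. Old Fabp4 shRNA against young livers gave -0.23 ± 0.28, or 0.14 without the unnumbered young library. In old control against young livers it was 0.72 ± 0.28, with an overlap in the unnumbered young library at 14.0 CPM. Without that library the value was 1.07 and the groups did not overlap.

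**Figure D2:**
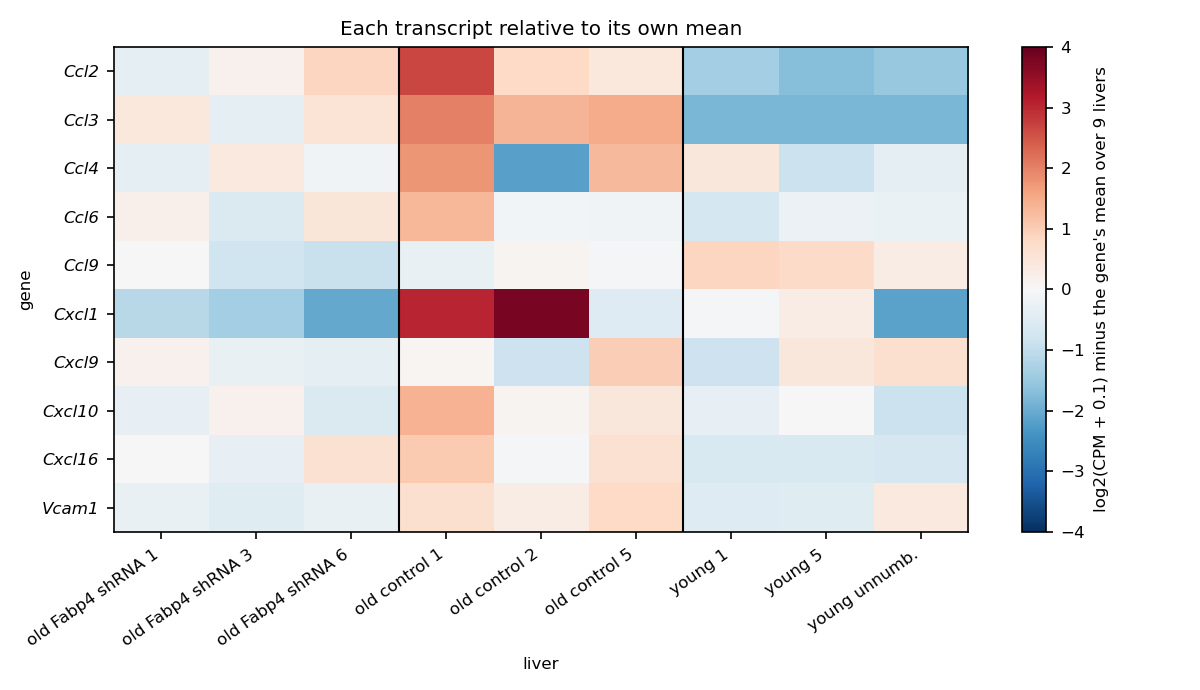
Each gene's log2(CPM + 0.1) in every library minus that gene's mean over the 9 libraries, as colour (red above, blue below the mean), with old Fabp4 shRNA, old control and young livers from left to right. Old control liver 1 is the reddest column for 6 of the 10 genes, Cxcl1 is deepest red in old control livers 1 and 2, and Ccl9 is red in young livers 1 and 5.

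Set against old control livers, the old Fabp4 shRNA livers had lower fitted levels of all 9 tested genes, as of 7211 of the 14025 genes in all. Ccl3, which the filter kept only for its level in old control livers, adds nothing to that count or to the counts that follow. Of the 10 genes, Ccl3, Cxcl1 and Vcam1 did not overlap between these groups, all 3 lower in old Fabp4 shRNA livers, and 0 were higher without overlap. Among all tested genes, 5.67% were lower and 6.02% were higher without overlap. With edgeR, 0 of the 9 tested genes passed an adjusted p of 0.05, as did 0% of all genes. At an unadjusted p of 0.05 the test passed 5 (Ccl2, Ccl3, Cxcl1, Cxcl10 and Vcam1), all lower, against 3.48% of all genes lower and 3.27% higher. DESeq2 called 7 genes in the whole table, Cxcl1 among them, and limma-voom called 0. The old control livers are those in which these genes were seen to stand out, so this comparison is not independent of the choice of genes.

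Between old and young livers, the old Fabp4 shRNA group had Ccl2, Ccl3 and Cxcl16 above and Ccl9 below all young livers. All tested genes gave 6.79% above and 6.67% below there. The old control livers had Ccl2, Ccl3, Ccl6, Cxcl10 and Cxcl16 above and Ccl9 below all young livers. The shares of all tested genes were 8.89% above and 8.26% below. Without the unnumbered young library Vcam1 joined those above, making 6. Fewer libraries make a lack of overlap easier for any gene, and the share of all genes was not computed there. Ccl3 adds nothing to the count for old control livers, because the filter kept it only for its level there. Ccl2 exceeded the filter's cutoff in old livers only, so it adds nothing to the count above young livers for either old group. Both comparisons use the same young livers. Without the unnumbered young library the log2 fold changes in old control against young livers were 2.76 for Cxcl1, 3.65 for Ccl2, 0.99 for Ccl6, 0.90 for Cxcl10 and 1.20 for Cxcl16, each with the sign it had with that library. The old control group had the highest mean of the 3 groups for 9 of the 10 genes, which held for 34.2% of all tested genes and which the choice of genes used. Old control liver 1 was the single highest library for 6 of the 10 (Ccl2, Ccl3, Ccl4, Ccl6, Cxcl10 and Cxcl16), against 13.6% of all tested genes. Cxcl9 and Vcam1 were highest in old control liver 5 and Cxcl1 in old control liver 2, so the 3 old control livers did not share 1 chemokine profile.

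**Figure D3:**
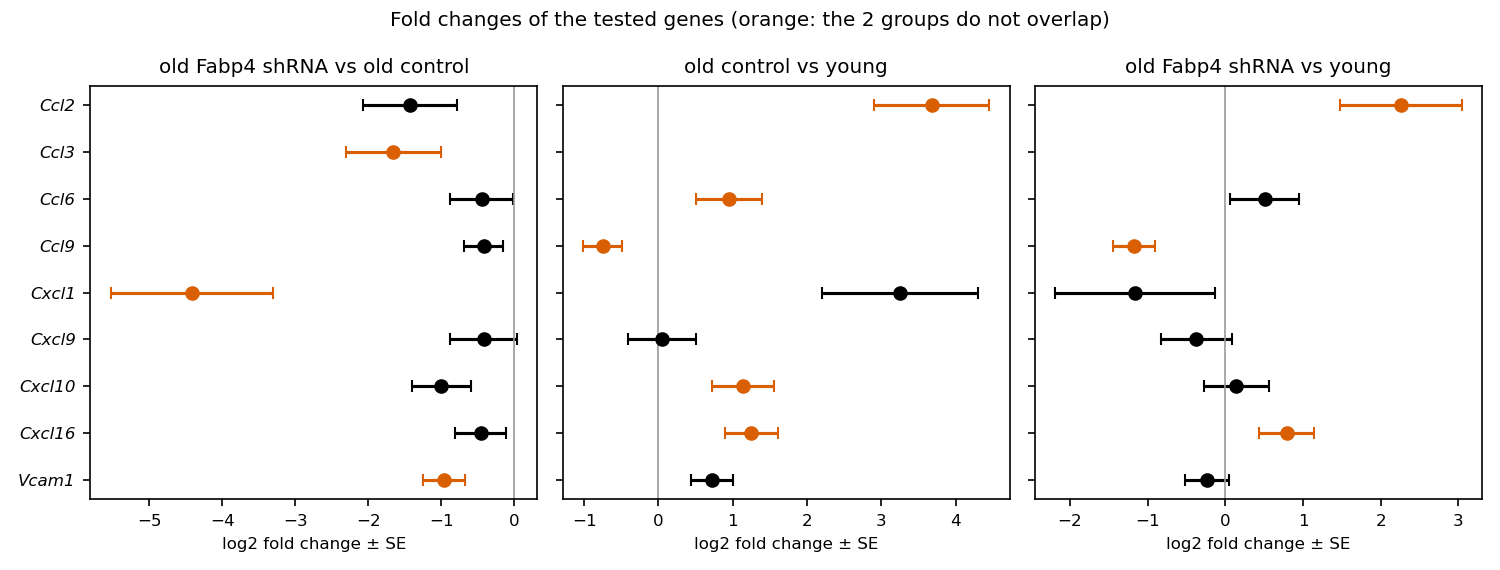
Fitted log2 fold change of each tested gene with its SE as a bar, in old Fabp4 shRNA against old control, old control against young, and old Fabp4 shRNA against young livers. All 9 values lie below 0 in the first comparison, and Ccl3 is left out of both comparisons with young livers, where it had 0 counts.

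The authors' deposited FPKM values scale counts to gene length and so let levels of different genes be compared. In old Fabp4 shRNA livers Ccl9 was highest at a mean of 9.09 FPKM (range 6.98 to 12.9), above the 1.78 to 3.83 FPKM of Ccl6, the next gene. In old control livers Cxcl1 had the highest mean, 45.2 FPKM, but ranged from 4.13 to 83.9 FPKM and overlapped Ccl9, the next at 12.1 FPKM (10.2 to 13.9). In young livers 1 and 5 Ccl9 led at 22.2 and 23.9 FPKM, followed by Cxcl1 at 5.83 and 7.39 FPKM. The remaining 8 genes had means of at most 3.87 FPKM in every group.

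Receptors and partners of these genes were read from 7 lists of 125 genes, of which 91 were tested. With edgeR, 0 of the 91 passed an adjusted p of 0.05 in either comparison below, against 0% of all genes in old Fabp4 shRNA against old control livers and 0.0357% in old control against young livers. At an unadjusted p of 0.05, old Fabp4 shRNA livers had 0 list genes higher and 12 lower than old control livers, which is 13.2% of the 91, where 3.27% of all genes were higher and 3.48% lower. Old control livers had 18 higher and 2 lower than young livers, which is 22.0% of the 91, where 6.42% of all genes were higher and 4.07% lower. Without the unnumbered young library these were 18 higher and 0 lower of 93 tested list genes, where 813 were higher and 684 lower of 14413 genes in all. DESeq2 called 0 list genes in old Fabp4 shRNA against old control livers and 4 in old control against young livers (Itga4, Cd44, Ifi44 and Oas3).

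Among chemokine receptors, 11 of 13 tested had a fitted log2 fold change below 0 in old Fabp4 shRNA against old control livers, as had 7211 of the 14025 genes in all. The median was -0.84 against -0.01 over all genes. At an unadjusted p of 0.05, 3 of the 13 were lower, against 3.48% of all genes. In old control against young livers the median was 0.84, and 0.74 without the unnumbered young library. Ccr1, the receptor of Ccl3, Ccl6 and Ccl9, had 0.550, 0.662 and 0.313 CPM in old Fabp4 shRNA livers, 1.28, 1.84 and 1.77 CPM in old control livers, and 0.222, 0.763 and 0.830 CPM in young livers. Every old control liver was above the other 6 libraries, and the log2 fold change in old Fabp4 shRNA against old control livers was -1.67 ± 0.58 (edgeR adjusted p = 0.728). Cxcr2, the receptor of Cxcl1, had 1, 6 and 12 counts in old Fabp4 shRNA livers, 22, 27 and 5 counts in old control livers, and 6, 3 and 9 counts in young livers. Its high libraries were old control livers 1 and 2, the same 2 in which Cxcl1 was high. Its log2 fold change in old Fabp4 shRNA against old control livers was -1.76 ± 0.80 (edgeR adjusted p = 0.728). The 2 receptors with values above 0 ran the other way. Cxcr6, the receptor of Cxcl16, had 16, 34 and 17 counts in old Fabp4 shRNA livers, 14, 2 and 9 counts in old control livers, and 14, 2 and 4 counts in young livers, with a log2 fold change between the old groups of 1.25 ± 0.74. Ackr4, a scavenging receptor for chemokines, had 27, 39 and 31 counts in old Fabp4 shRNA livers and 23, 15 and 12 counts in old control livers (0.76 ± 0.46). Both were higher without overlap in old Fabp4 shRNA livers, and both were named after their values were seen. Of the 13 tested receptors, 2 were higher and 4 lower without overlap, against 6.02% and 5.67% of all tested genes.

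Among leukocyte integrins and selectin ligands, 14 of 15 tested had a fitted log2 fold change below 0 in old Fabp4 shRNA against old control livers (median -0.59), and 4 passed an unadjusted p of 0.05. In old control against young livers 13 of 15 lay above 0, where 7165 of all 14025 genes did, and 6 passed an unadjusted p of 0.05. That median was 0.86, against 0.01 over all genes, and 0.88 without the unnumbered young library. At an unadjusted p of 0.05, 3.48% of all genes were lower in the first comparison and 6.42% higher in the second. Itga4, the partner of Vcam1, had 10.9, 11.6 and 13.0 CPM in old Fabp4 shRNA livers, 19.6, 25.2 and 14.1 CPM in old control livers, and 7.61, 10.5 and 7.09 CPM in young livers. The 3 groups did not overlap, with the old control livers at the top and the young livers at the bottom. Its log2 fold change was -0.74 ± 0.26 in old Fabp4 shRNA against old control livers (edgeR adjusted p = 0.728) and 1.23 ± 0.26 in old control against young livers (edgeR adjusted p = 0.170). Cd44, a receptor for hyaluronan that also carries selectin-binding sugars, gave -1.02 ± 0.31 (adjusted p = 0.728) and 1.31 ± 0.31 (adjusted p = 0.204) in the same comparisons, both from edgeR. Itgax, an integrin of dendritic cells and macrophages, gave -1.38 ± 0.48 in old Fabp4 shRNA against old control livers (edgeR adjusted p = 0.728). Itgb2, the shared chain of the leukocyte integrins, gave 1.26 ± 0.34 in old control against young livers (edgeR adjusted p = 0.271). Without the unnumbered young library the values in old control against young livers were 1.09 for Itga4, 1.33 for Cd44 and 1.39 for Itgb2.

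Other endothelial adhesion genes had median log2 fold changes of -0.19 in old Fabp4 shRNA against old control livers and 0.25 in old control against young livers over 14 tested genes. Icam1, the endothelial ligand of Itgb2 integrins, had 7.69, 10.3 and 15.5 CPM in old Fabp4 shRNA livers, 24.9, 13.8 and 14.1 CPM in old control livers, and 10.6, 7.10 and 9.58 CPM in young livers. The old groups overlapped, and all old control livers were above all young livers. Its log2 fold changes were -0.66 ± 0.32 (adjusted p = 0.741) and 0.95 ± 0.32 (adjusted p = 0.365) in these comparisons with edgeR, and the second was 0.96 without the unnumbered young library. Cd99l2, which helps leukocytes cross the endothelium, had values of 0.42 ± 0.21 (adjusted p = 0.741) and -0.52 ± 0.21 (adjusted p = 0.421) with edgeR. It did not overlap in either comparison and was lowest in old control livers. Cd34, a surface protein of endothelium and blood stem cells, had 17, 27 and 15 counts in old Fabp4 shRNA livers, 15, 3 and 12 counts in old control livers, and 16, 12 and 95 counts in young livers. Its value in old control against young livers, -2.12 ± 0.75 (edgeR adjusted p = 0.385), became -0.77 without the unnumbered young library, which held the 95 counts. Without that library the median of the list was 0.63 in that comparison.

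Of the other chemokine ligands most were too low to test, with 4 of 14 CC genes and 7 of 12 CXC, XC and CX3C genes passing the filter. Their medians were -0.57 and -0.35 in old Fabp4 shRNA against old control livers, and 0.33 and 0.23 in old control against young livers. Cxcl13, an attractant of B cells, had 7.14, 1.60 and 7.68 CPM in old Fabp4 shRNA livers, 42.0, 6.84 and 5.11 CPM in old control livers, and 1.40, 4.27 and 1.40 CPM in young livers. All old control livers lay above all young livers for Cxcl13, and old control liver 1 was far above the rest. Its log2 fold change was 2.94 ± 0.98 in old control against young livers (edgeR adjusted p = 0.385), and 2.62 without the unnumbered young library. Without that library the medians of both lists were 0.12 for CC genes and 0.35 for CXC, XC and CX3C genes. Ccl5, a T cell chemokine, was highest in old control liver 5 at 9.60 CPM, the liver that was also highest for Cxcl9.

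Of 20 interferon-inducible genes, 19 had a fitted log2 fold change below 0 in old Fabp4 shRNA against old control livers (median -0.68). At an unadjusted p of 0.05, 3 were lower, against 3.48% of all tested genes. Without overlap between the groups, 1 was lower, against 5.67% of all tested genes. In old control against young livers 19 of 20 lay above 0 (median 0.70). There 5 were higher at that p and 4 without overlap, against 6.42% and 8.89% of all tested genes. Without the unnumbered young library 17 of 20 lay above 0, with a median of 0.41. Ifit2 and Ifi44, both products of the interferon response, had 21.3 and 30.7 CPM in old control liver 1 and at most 6.50 and 8.27 CPM in every other library. The summed level of the list was 1849 CPM in that liver and at most 1115 CPM in the others. For the inducing cytokines and NF-kB genes the medians were -0.27 in old Fabp4 shRNA against old control livers and 0.32 in old control against young livers over 18 genes, the second being 0.36 without the unnumbered young library. Tlr4, the endotoxin receptor, gave -1.36 ± 0.59 in old Fabp4 shRNA against old control livers (edgeR adjusted p = 0.728), and Tnfaip3, an inhibitor of NF-kB, gave 1.51 ± 0.68 in old control against young livers (edgeR adjusted p = 0.469). Tnfaip3 had 10.1, 1.69 and 1.64 CPM in old control livers and 0.887, 2.06 and 1.79 CPM in young livers, so that value came from old control liver 1 alone.

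**Figure D4:**
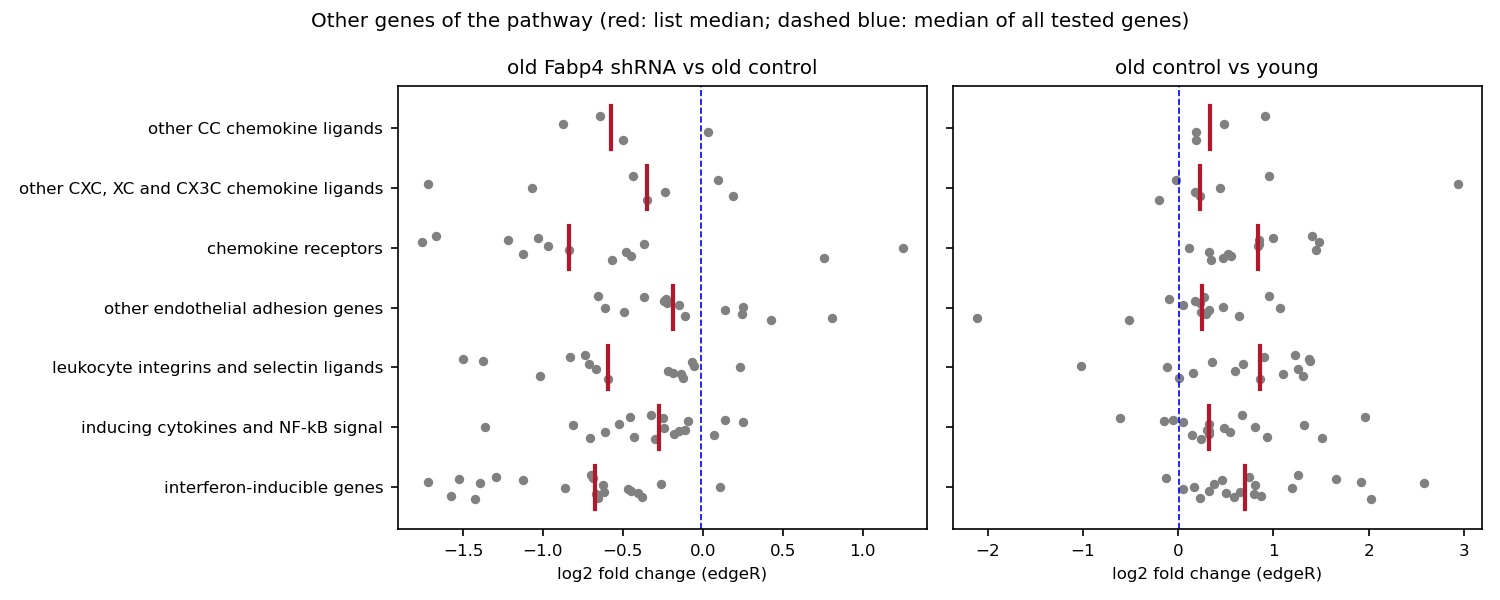
Fitted log2 fold changes of the tested genes of 7 lists (points) with the list median (bar), in old Fabp4 shRNA against old control livers and in old control against young livers. The chemokine receptors have medians of -0.84 and 0.84 in these comparisons, beside -0.01 and 0.01 over all tested genes.

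Markers of several cell types also differed between the libraries. The 10 Kupffer cell markers summed to 228, 118 and 200 CPM in old Fabp4 shRNA livers, 763, 197 and 190 CPM in old control livers, and 197, 285 and 169 CPM in young livers. Thus old control liver 1 stood apart in the same direction for Kupffer cell markers, interferon-inducible genes and 6 of the 10 genes. The 9 monocyte or recruited macrophage markers summed to 45.4 to 63.9 CPM in old Fabp4 shRNA livers, 62.7 to 161 CPM in old control livers and 27.9 to 54.9 CPM in young livers. Of these, S100a4 was at 0 in every library but old control liver 1.

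The 9 neutrophil markers summed to 9.16, 6.12 and 15.7 CPM in old Fabp4 shRNA livers, 63.0, 50.7 and 19.4 CPM in old control livers, and 13.1, 15.2 and 28.0 CPM in young livers. Old control livers 1 and 2, the libraries with high Cxcl1, were highest. Of the 9 markers, 6 were lower in all old Fabp4 shRNA than in all old control livers, against 5.67% of all tested genes. The defining markers Ly6g and Camp were at 0 in some libraries. Cxcr2, described above beside Cxcl1, is itself among the 9 markers. T or NK cell markers were highest in old control liver 5 at 20.5 CPM and lowest in old control liver 2 at 6.18 CPM, as Cxcl9 was among the old control livers. In the other groups their order was the reverse of that of Cxcl9. The markers summed to 12.0, 12.5 and 14.7 CPM in old Fabp4 shRNA livers, where Cxcl9 had 10.2, 7.34 and 6.79 CPM. They summed to 15.0, 11.4 and 8.94 CPM in young livers, where Cxcl9 had 5.03, 12.3 and 14.2 CPM. The order in young livers rests on the count column of the unnumbered young library, whose recovered reads for Cxcl9 were far fewer.

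Cells that can carry Vcam1 were followed in the same way. Sinusoidal endothelial markers summed to 119 to 232 CPM in old Fabp4 shRNA livers, 126 to 251 CPM in old control livers and 71.6 to 109 CPM in young livers. Stellate cell markers summed to 205 to 283 CPM in old Fabp4 shRNA livers and 202 to 362 CPM in old control livers. They were highest, at 391 CPM, in the unnumbered young library, whose counts put Vcam1 at 14.0 CPM. Reads recovered from its second deposited value gave 58 for Vcam1, against 219 counts. B or plasma cell markers reached 165 CPM at most in old Fabp4 shRNA livers, 167 to 394 CPM in old control livers and 84.5 CPM at most in young livers. Bile duct markers ran from 21.9 to 41.2 CPM in old Fabp4 shRNA livers, 64.5 to 158 CPM in old control livers and 53.9 to 57.4 CPM in young livers. Immediate early genes, a sign of handling, summed to 63.7 to 165 CPM in old Fabp4 shRNA livers, 108 to 209 CPM in old control livers and 86.4 to 97.2 CPM in young livers. The part of these cell types, or of handling, in the levels of the 10 genes was not tested.

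**Figure D5:**
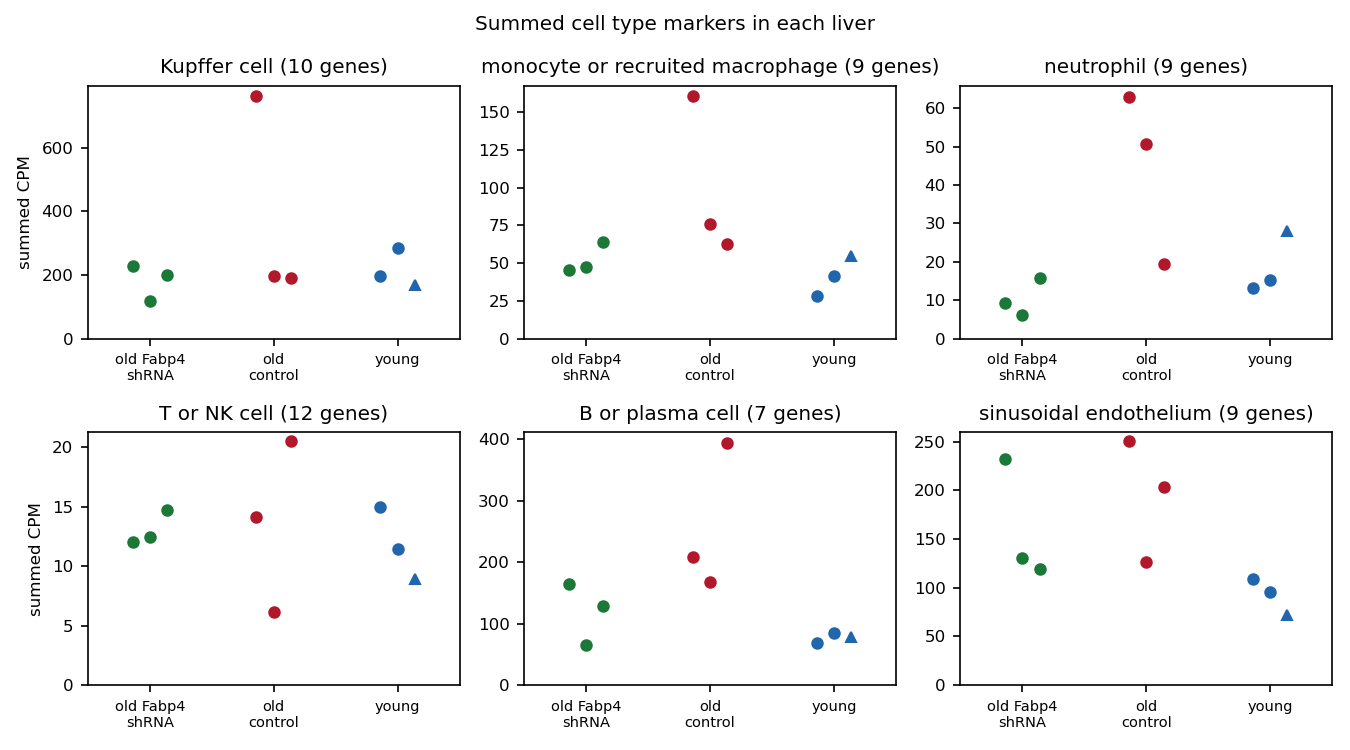
Summed CPM of marker lists in every library, with old Fabp4 shRNA, old control and young livers from left to right. Kupffer cell markers reach 763 CPM in old control liver 1 alone, and neutrophil markers are highest at 63.0 and 50.7 CPM in old control livers 1 and 2.

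Across the 9 libraries, the genes whose log2 CPM ran most like each of the 9 tested genes were sought among all tested genes. These correlations are a description over 9 points that share their libraries, group structure and depth. Ccl6 ran closest to Oas3 (Pearson r = 0.970), Slfn4 (0.953) and Epsti1 (0.947), and Slfn4 had 38.9 CPM in old control liver 1 against at most 8.91 CPM elsewhere. Cxcl1 ran closest to Slc37a1 (r = 0.903) and Elane (r = 0.892), and Elane, which encodes neutrophil elastase, is also among the neutrophil markers above. Elane had 5, 4 and 2 counts in old Fabp4 shRNA livers, 36, 23 and 13 counts in old control livers, and 10, 14 and 6 counts in young livers. Vcam1 ran closest to Vim (r = 0.967), which had 21.1, 14.9 and 15.4 CPM in old Fabp4 shRNA livers, 34.5, 26.0 and 42.8 CPM in old control livers, and 13.6, 16.1 and 26.4 CPM in young livers. Both genes were highest in old control liver 5. By its count column, which differs from its second deposited value, the unnumbered young library was the highest young one for both. The closest to Ccl9 was Fbxo36 (r = 0.981), to Cxcl10 Cmpk2 (r = 0.946), to Cxcl16 Zswim3 (r = 0.941), to Ccl2 Marcksl1 (r = 0.942) and to Cxcl9 Fgfr1 (r = 0.925). Marcksl1 was also among the 3 closest genes of Ccl3 (r = 0.937).

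Some counts could be shared with other genes. On GRCm38 with GENCODE mouse release 21, Ccl2 overlaps Gm17268, Ccl6 overlaps E230016K23Rik, Cxcl10 overlaps Art3, Cxcl16 overlaps Zmynd15 and Vcam1 overlaps Gm43109, each on the opposite strand. Whether the counting used strand is not given in the labels or notes, so reads of these 5 genes and their partners may not be told apart.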

How the data were processed

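RNA from 9 livers was sequenced, 3 per group, from separate mice of starting groups of 15. The extraction text in the labels names NRVMs, while the tissue is labelled liver. Reads were aligned with HISAT2 to GRCm38.p6, per the submitters' processing notes. Which tool counted them, with which strand setting and annotation, is not stated in the labels or notes. The deposited table holds raw read counts per gene, and a second deposited table holds FPKM made by the authors. Dividing FPKM by count gave 1 constant per gene in 8 columns, for 100% of 10483 genes checked, but for 0.229% in the column of the unnumbered young library. That column was assigned to young from the letter in its name. Reads recovered from its FPKM (17877 values, 100% whole within 0.05 reads) served as an alternative.

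Counts were filtered with filterByExpr (minimum count 10), scaled by TMM and fitted with 1 mean per group by edgeR 4.0.16 (R 4.3.3, quasi-likelihood test, two-sided, 6 residual degrees of freedom). P-values were adjusted by Benjamini-Hochberg over 14025 genes, with a threshold of 0.05. Fold changes are given with standard errors, and the common biological coefficient of variation was 0.320. DESeq2 1.42.0 and limma 3.58.1 were alternatives. The script was tested on simulated data. A floor of 3 counts marked the limit of detection, and floors and count intervals cover counting error only. Promoter sequences came from RefSeq and were matched by symbol for 6 of the 10 genes, and gene positions came from GENCODE. The 10 genes and all lists were chosen with earlier results of these data known. From each list, the 3 genes with the smallest p in a comparison could be named, and for each of the 9 tested genes the 3 with the highest correlation over 9 libraries. Counts of genes without overlap under other settings, and list values without the unnumbered young library, were added after seeing the data.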

Additional observations from a re-analysis of the deposited data

How the results depend on the processing

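In old Fabp4 shRNA against old control livers edgeR called 0 genes. The number was 8 with no filter on low counts, 7 with DESeq2, 1 with limma-trend on log2(FPKM + 1) and 1 on log2(FPKM + 0.1), and 0 to 1 when 1 library was left out. In old control against young livers edgeR called 5. This became 137 with no filter, 168 with DESeq2, 3 with limma-voom, 18 and 21 on log2(FPKM + 1) and log2(FPKM + 0.1), 15 with only the 6 libraries compared, 10 with the recovered reads, and 1 to 10 when 1 library was left out. Among leukocyte integrins and selectin ligands, 2 genes were called in that comparison with no filter and 2 with DESeq2, and among interferon-inducible genes 2 with DESeq2, where edgeR called 0 in either list.

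Of 545 fold changes of the 10 genes under other settings, 529 kept their sign. In old Fabp4 shRNA against young livers 5 values of Vcam1, 4 of Cxcl10 and 3 of Cxcl9 changed sign, and in old control against young livers 2 of Cxcl9. In the comparisons with young livers 33 values moved by 1 SE or more. In old Fabp4 shRNA against old control livers Ccl6 became 0.23 without old control liver 1 (adjusted p = 0.968, edgeR), and Cxcl9 became 0.15 without old control liver 5 (adjusted p = 0.997). Leaving out other libraries gave values down to -0.69 for Ccl6 and -0.76 for Cxcl9. The genes lower without overlap in this comparison numbered 3 to 6 when 1 library was left out, with 6 without old control liver 2. In old Fabp4 shRNA against young livers the number was 1 to 2, with 2 when young liver 1 or the unnumbered young library was left out and 2 when recovered reads were used. Leaving out a library makes a lack of overlap easier for any gene, and the shares of all genes were not computed for these settings. With no scaling factors the median of all genes shifted by 0.14, 0.15 and 0.29 on the log2 scale in old Fabp4 shRNA against old control, old control against young, and old Fabp4 shRNA against young livers. The causes were not tested.

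Old control and young livers share the numbers 1 and 5. Their deviations correlated at 0.112 for number 1 and 0.0295 for number 5, so the numbers were not taken to pair the livers. A fit with the replicate block called 158 genes in old control against young livers. There a library with a number of its own is fitted exactly, so the comparison rests on numbers 1 and 5. The larger number of genes is therefore not read as a gain from pairing. No paired analysis was possible for old Fabp4 shRNA against old control livers because they share only number 1. At 14243344 counts or more per library, values near 3 counts, as of Ccl2, Ccl3 and Ccl4 in young livers, limit what can be said of the size of a change.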
